A study of Homo sapiens with 8 samples.

Results

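The mRNAs of 10 RNA-binding proteins that read N6-methyladenosine (m6A) or act on mRNA stability beside it were followed through a sort of processing bodies (P-bodies) and through a knockdown of EDC4 in HEK293T cells. The genes were taken by symbol: YTHDF1, YTHDF2, YTHDF3, YTHDC1, YTHDC2, IGF2BP1, IGF2BP2, IGF2BP3, LIN28B and ELAVL1. All 10 were present among the 59414 genes of the count table and in each of the 4 editing tables, which hold 10643 to 11969 genes. HEK293T is a long-established human embryonic kidney line, and all 8 libraries come from cells labelled PB-TRIBE-STAMP. TRIBE marks RNA near a fused deaminase by changing adenosine to inosine (A-to-I), and STAMP by changing cytidine to uridine (C-to-U). An edited read is therefore a read that carries such a mark.

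The libraries fell into 4 groups of 2. Sorted P-bodies (50 ng of RNA as input, labelled total RNA) were set against cytosol (100 ng, labelled cytoplasmic RNA), and cells treated with siEDC4 against cells treated with siNC, read here as the control siRNA (500 ng each, labelled polyA RNA). EDC4 is a scaffold of the decapping machinery of P-bodies. Both arms of each contrast came from editor-bearing cells, and no library without the editors was used, so marks from other sources cannot be told apart from the editors' marks. Neither the promoter nor the protein that carries the editors to P-bodies is named in the labels. Fraction, input amount and kind of RNA went together in the sort and cannot be told apart. The labels number the libraries of a group 1 and 2 and give the same number as a batch, but do not say whether they were separate cultures, so p-values measure the spread between these libraries, which may be technical.

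P-bodies are cytoplasmic granules that hold decapping and repression proteins together with untranslated mRNA. YTHDF1, YTHDF2 and YTHDF3 are closely related cytoplasmic proteins whose YTH domain binds m6A, and YTHDF2 is best known for recruiting the CCR4-NOT deadenylase to methylated mRNA. YTHDC1 is the nuclear reader, which acts in splicing and export, and YTHDC2 is a reader with a helicase core known from germ cells. The IGF2BP proteins bind mRNAs through KH domains and protect them from decay, LIN28B blocks the maturation of let-7 microRNAs, and ELAVL1 (HuR) stabilises mRNAs with AU-rich elements. What was measured here is the mRNA of each of these proteins, not the protein or its binding.

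The count table held 21186963 to 23716926 reads per library. In the editing tables the genes of a library summed to 12048147 to 15947999 reads in the sort and 5697417 to 6294767 in the knockdown. All 7 HEK293T-like markers fixed for the check had a mean of at least 1 CPM (reads per 1000000 of the library), with a summed level of 308 to 339 CPM in sorted P-bodies and 554 to 571 CPM in cytosol. None of the 6 blood cell markers and neither hepatocyte marker reached that mean (2 of the blood cell markers were at 0), while 3 of the 5 fibroblast markers did, at a summed 16.2 to 20.3 CPM in sorted P-bodies and 30.9 to 32.9 CPM in cytosol. The sorted P-body libraries differed from each other more than the cytosol libraries did, with a chi-square per degree of freedom of 22.5 against 3 (genes of 10 reads or more). This value was 1.02 for the reads of the siNC libraries, about sampling noise, and 1.30 and 1.31 for their A-to-I and C-to-U edited reads, beyond it. Because of the former their reads were summed and counted as 1 sample in the knockdown tests. Their edited reads were summed along with them, so the editing tests leave out the spread between the siNC libraries. With the 4 libraries kept apart (no replicate block), 0 genes passed in either editing test by edgeR. Antisense genes and pseudogenes named after the 10 genes had between 0 and 20 reads in any library of the sort, against 1198 to 11550 for the genes themselves.

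The first question was where the mRNAs of these genes lie, in sorted P-bodies or in the cytosol. LIN28B, YTHDF3 and YTHDC2 mRNAs were far more abundant in sorted P-bodies, YTHDC1 and YTHDF2 moderately so, and IGF2BP1, IGF2BP2 and ELAVL1 were more abundant in the cytosol. YTHDF1 and IGF2BP3 did not pass the test. Thus 5 of the 10 were called higher in the sorted fraction and 3 lower, with an adjusted p under 0.05 (edgeR's quasi-likelihood test, Benjamini-Hochberg over all genes tested). Over all 18745 genes tested, 28.8% were higher and 29.0% lower, so passing the test was common in this comparison (57.8% in either direction). The median log2 fold change was 0.28 over the 10 genes and -0.03 over all genes. CPM values of single genes are given after TMM scaling, which evens out the bulk of genes between libraries. A CPM value is a share of a library, so a higher share in a fraction and less of other RNA there cannot be told apart.

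**Figure D1:**
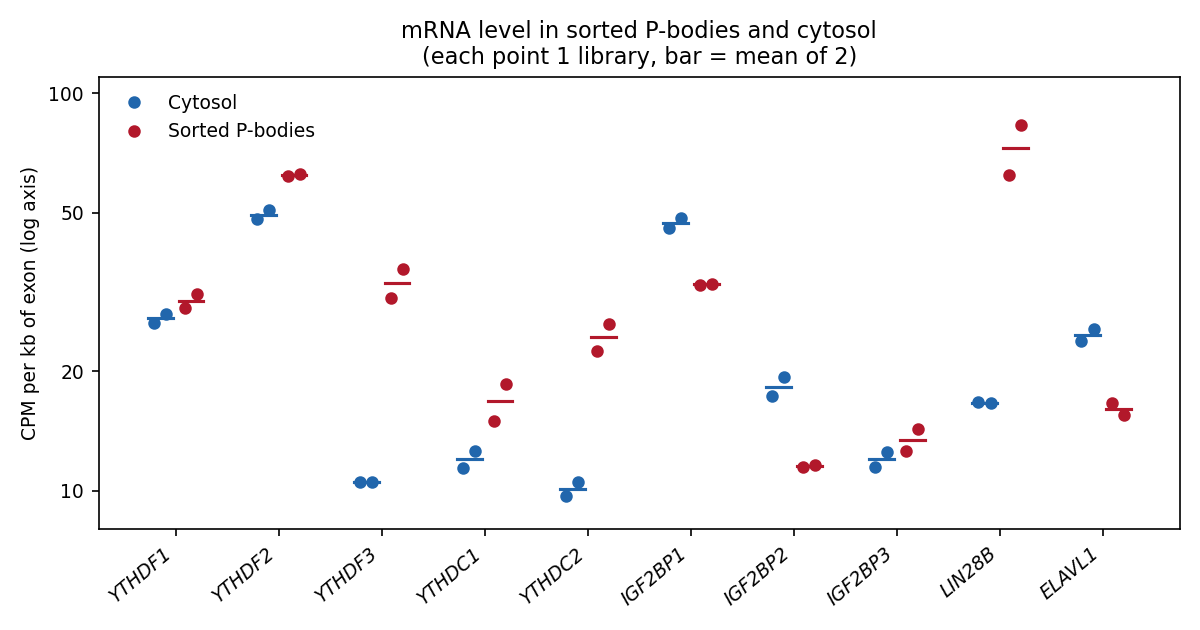
mRNA level of each gene in CPM per kb of exon (log axis), with 1 point per library and a bar at the mean of the 2 libraries of a group. LIN28B rises from 16.7 in cytosol to 72.9 in sorted P-bodies, and the points of IGF2BP1, IGF2BP2 and ELAVL1 lie lower in sorted P-bodies than in cytosol.

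LIN28B stood apart in size. Sorted P-body libraries 1 and 2 held 371 and 495 CPM of it, cytosol libraries 1 and 2 held 99.4 and 98.6 CPM. The groups did not overlap, and the sorted libraries differed from each other far more than the cytosol libraries. The log2 fold change was 2.17 ± 0.15 (SE; adjusted p = 5e-06 by edgeR). Leaving out sorted library 1 or 2 moved it to 2.35 or 1.92, both past the threshold.

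The YTHDF paralogs, whose proteins share most of their sequence in the YTH domain, were split. YTHDF3 had 189 and 223 CPM in sorted P-bodies against 65 and 64.6 CPM in cytosol, a log2 fold change of 1.71 ± 0.12 (adjusted p = 5.5e-06 by edgeR). YTHDF2, the decay-promoting reader, had 231 and 234 CPM against 180 and 189 CPM, a log2 fold change of 0.37 ± 0.11 (adjusted p = 0.013 by edgeR). YTHDF1, known for promoting translation of its targets, had 92.6 and 100 CPM against 84.9 and 89.4 CPM, and its log2 fold change of 0.18 ± 0.10 did not pass (adjusted p = 0.16 by edgeR). The fractions did not overlap for these 3 or for the other 7 genes, which held for 38.8% of all genes in the higher and 41.6% in the lower direction. The difference between the paralogs was not tested as such, and their SE values are those of each gene alone.

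The YTHDC genes were both higher in sorted P-bodies. YTHDC2 had 243 and 284 CPM there against 105 and 113 CPM in cytosol, a log2 fold change of 1.31 ± 0.12 (adjusted p = 1.8e-05 by edgeR). YTHDC1 had 106 and 131 CPM against 80.5 and 88.4 CPM, a log2 fold change of 0.52 ± 0.13 (adjusted p = 0.0059 by edgeR). Sorted library 2 was the higher of the pair for both.

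In the IGF2BP family the direction was the reverse for 2 of 3 genes. IGF2BP1, the most abundant of the family, had 318 and 319 CPM in sorted P-bodies against 442 and 469 CPM in cytosol, a log2 fold change of -0.48 ± 0.11 (adjusted p = 0.0038 by edgeR). IGF2BP2 had 61.5 and 61.6 CPM against 92.1 and 103 CPM, a log2 fold change of -0.63 ± 0.11 (adjusted p = 0.00065 by edgeR). Both genes were nearly identical in the sorted libraries. IGF2BP3 had 108 and 122 CPM against 98.5 and 107 CPM, with a log2 fold change of 0.20 ± 0.11 that did not pass (adjusted p = 0.16 by edgeR). ELAVL1 resembled IGF2BP1 and IGF2BP2, with 116 and 108 CPM against 166 and 177 CPM and a log2 fold change of -0.58 ± 0.11 (adjusted p = 0.0012 by edgeR).

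The smaller differences depended on scaling and on single libraries. Scaling by library size alone moved the median of all genes to -0.23 and the background to 22.7% higher and 36.9% lower; YTHDF2 then had 0.17 (adjusted p = 0.18), and YTHDF1 (-0.02) and IGF2BP3 (-0.005, within its error of 0) changed sign. With a gene length offset YTHDF1 passed (0.36, adjusted p = 0.013) and IGF2BP3 again changed sign (-0.04). Without cytosol library 1, 3 of the 10 genes were higher, since YTHDF2 and YTHDC1 no longer passed (adjusted p = 0.30 and 0.11), and IGF2BP1 did not either (0.058). Without cytosol library 2, YTHDF2 and IGF2BP1 did not pass (0.19 and 0.12), and without sorted library 1, YTHDF1 and IGF2BP3 did (0.0017 and 9.4e-05). LIN28B, YTHDF3, YTHDC2, IGF2BP2 and ELAVL1 kept their direction and passed under these settings.

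Per kb of exon, the order of the genes differed between fractions. In sorted P-bodies LIN28B (72.9 ± 14.8 CPM per kb, SD, n = 2) and YTHDF2 (62.4 ± 0.59) were highest, and the libraries of these genes overlapped in range. YTHDF3 (33.4 ± 3.95), IGF2BP1 (33.1 ± 0.10) and YTHDF1 (30.1 ± 1.71) followed, then YTHDC2 (24.4 ± 2.72). The range of YTHDF3 overlapped those of IGF2BP1 and YTHDF1, while IGF2BP1 lay above YTHDF1 in each sorted library. YTHDC1 and ELAVL1 did not differ beyond their spread (16.8 ± 2.55 and 16.1 ± 0.79), and IGF2BP3 (13.5 ± 1.20) and IGF2BP2 (11.5 ± 0.0088) were lowest. In cytosol YTHDF2 (49.5 ± 1.80) and IGF2BP1 (47.3 ± 1.98) were highest and overlapped, YTHDF1 (27.2 ± 1.00) and ELAVL1 (24.6 ± 1.20) came next, and then IGF2BP2 (18.3 ± 1.45) and LIN28B (16.7 ± 0.094). IGF2BP3, YTHDC1, YTHDF3 and YTHDC2 lay lowest, between 9.71 and 12.6 CPM per kb in single libraries. LIN28B thus moved from the sixth place to the first, and IGF2BP2 from the fifth to the last.

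The next question was how much of each mRNA carried editing marks. The editing score is the share of a gene's reads that were edited, and the change between fractions is given as a log2 odds ratio of edited to unedited reads. All 10 mRNAs carried more A-to-I marks in sorted P-bodies than in cytosol. So did most genes: of 11303 tested, 73.5% were higher and 1.08% lower, and the median log2 odds ratio was 1.46 over all genes and 1.87 over the 10. Among the 9796 genes with at least 20 edited reads in all, 8106 were higher and 67 lower, with all 10 among the higher. The count of 10 is therefore read against a fraction-wide shift, and for each gene the odds ratio was also taken after centring every library on its median score. The centred odds ratios had a median of 0.06 over all genes, of which 16.9% were higher and 12.4% lower, and 5 of the 10 genes were higher and 1 was lower. These shares include genes with few edited reads, which pass less easily. A centred share over genes of like read number was not taken.

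**Figure D2:**
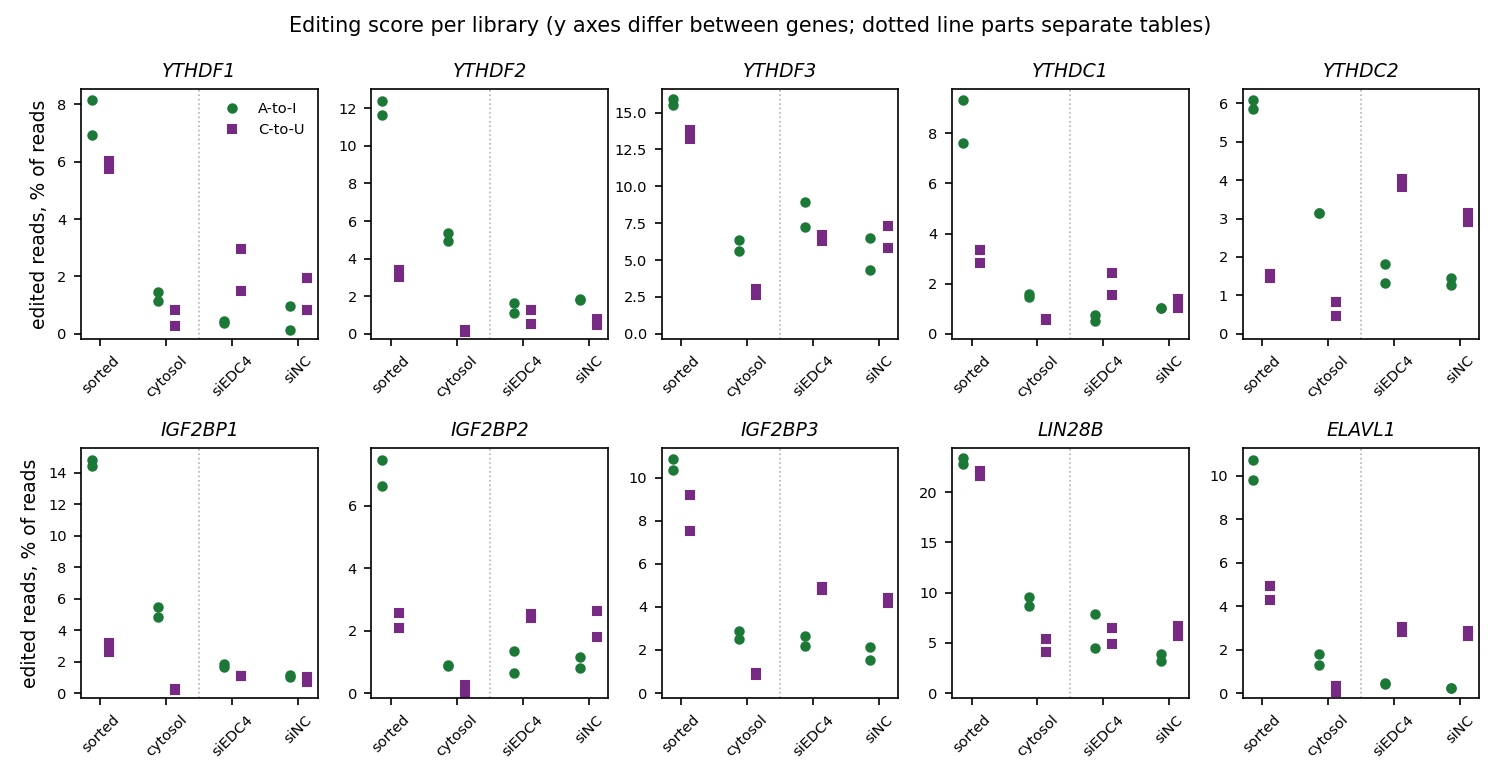
Edited reads as a percentage of all reads of each gene, with 1 point per library (circles, A-to-I; squares, C-to-U) in sorted P-bodies, cytosol, siEDC4 and siNC; the y axes differ between genes. In every panel both editors score higher in sorted P-bodies than in cytosol, and in the LIN28B panel the sorted libraries lie above 20%.

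LIN28B carried the most marks of the 10. Its A-to-I score was 22.8% (1187 of 5208 reads) and 23.4% (1286 of 5505) in sorted P-bodies, against 9.53% and 8.65% in cytosol. That placed it 42nd of 10175 genes with at least 100 reads in every library when ranked by the sorted score, and above 97.9% of them in cytosol. Because it was high in both fractions, its log2 odds ratio of 1.59 ± 0.13 was close to the median gene, and the centred value of 0.18 ± 0.11 did not pass (adjusted p = 0.24 by edgeR).

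YTHDF3, YTHDF2 and IGF2BP1 behaved like LIN28B, with high scores in both fractions. YTHDF3 scored 15.5% and 15.9% in sorted P-bodies against 5.59% and 6.33% in cytosol, IGF2BP1 14.4% and 14.8% against 5.48% and 4.80%, and YTHDF2 11.6% and 12.4% against 4.92% and 5.39%. Their centred log2 odds ratios were 0.15 ± 0.15, 0.26 ± 0.10 and -0.08 ± 0.12, and none passed (adjusted p = 0.50, 0.055 and 0.65 by edgeR). The YTHDF2 value, 1.33 before centring, lay within its error of 0 after it.

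ELAVL1, IGF2BP2, YTHDF1 and YTHDC1 were sparsely marked in the cytosol and passed in the higher direction after centring. The cytosolic score enters the odds ratio, so a low score and a high ratio are not separate observations. ELAVL1 scored 10.7% and 9.82% in sorted P-bodies against 1.30% and 1.78% in cytosol, with a log2 odds ratio of 2.87 ± 0.19 and a centred value of 1.46 ± 0.19 (adjusted p = 8e-06 by edgeR). IGF2BP2 scored 7.48% and 6.63% against 0.90% and 0.88%, and its centred log2 odds ratio of 1.68 ± 0.27 was the largest of the 10 (adjusted p = 0.00013 by edgeR). YTHDF1 scored 6.93% and 8.14% against 1.45% and 1.15%, and YTHDC1 9.32% and 7.60% against 1.58% and 1.48%. Their centred log2 odds ratios were 1.22 ± 0.24 and 1.16 ± 0.23 (adjusted p = 0.00085 and 9e-04 by edgeR). In cytosol these 4 mRNAs scored above only 11.9% to 23.3% of genes, and in sorted P-bodies above 44.3% to 65.8%. IGF2BP3 lay between, with 10.9% and 10.3% against 2.52% and 2.90% and a centred log2 odds ratio of 0.68 ± 0.18 (adjusted p = 0.008 by edgeR).

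YTHDC2 differed from the rest of the group. It scored 5.85% and 6.09% in sorted P-bodies against 3.14% and 3.14% in cytosol, a log2 odds ratio of 0.97 ± 0.16 (adjusted p = 4.6e-05 by edgeR). After centring the value was -0.44 ± 0.16, which passed in the other direction (adjusted p = 0.042 by edgeR). Its mRNA was higher in sorted P-bodies by 1.31 on the log2 scale, whereas IGF2BP2 and ELAVL1, with the largest centred editing odds ratios, were lower there. Other genes did not share this contrast. YTHDC1 passed after centring and was higher in abundance, and IGF2BP1 was lower in abundance without passing after centring.

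C-to-U marks gave the same picture for several genes and another for others, among them YTHDF2, IGF2BP1 and YTHDC1. All 10 mRNAs were again higher in sorted P-bodies, against 68.0% of the 10613 genes tested (0.292% were lower), with a median log2 odds ratio of 3.40 over the 10 and 2.33 over all genes. Many genes tested had few edited reads. Among the 6705 with at least 20 in all, 6220 were higher and 13 lower, so 10 of 10 was near the usual outcome. With limma and the smaller pseudocount 8 of the 10 were called, IGF2BP2 (adjusted p = 0.054) and YTHDC2 (0.073) being lost. After centring, which left a median of 0.22 over all genes with 13.8% higher and 3.67% lower, 5 of the 10 were higher and none was lower. Here too the centred shares were not matched for read number.

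LIN28B was again the most marked, with 21.6% (1131 of 5243 reads) and 22.1% (1212 of 5480) in sorted P-bodies, against 5.36% and 4.06% in cytosol. It was 66th of 10109 genes by the sorted score, and its centred log2 odds ratio was 0.35 ± 0.20 (adjusted p = 0.25 by edgeR). YTHDF3 followed, with 13.2% and 13.8% against 2.62% and 3.03%, and a centred value of 0.27 ± 0.23 (adjusted p = 0.45 by edgeR). Both mRNAs thus had high scores from either editor in either fraction. IGF2BP3 came next, with 7.53% and 9.17% against 0.91% and 0.84%, and passed after centring (1.20 ± 0.28, adjusted p = 0.015 by edgeR).

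YTHDF2 and IGF2BP1, heavily marked by the A-to-I editor in the cytosol, were barely marked there by the C-to-U editor. YTHDF2 had 4 edited of 3551 reads and 8 of 3800 in cytosol (0.11% and 0.21%) and 3.03% and 3.39% in sorted P-bodies. IGF2BP1 had 16 of 8453 and 26 of 8983 in cytosol (0.19% and 0.29%) and 2.62% and 3.21% in sorted P-bodies. Their centred log2 odds ratios were 2.18 ± 0.41 and 1.47 ± 0.32 (adjusted p = 0.0058 and 0.011 by edgeR). The A-to-I scores of YTHDF2 and IGF2BP1 in cytosol exceeded those of 80.6% and 80.4% of genes, the C-to-U scores those of 22.8% and 29.2%.

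ELAVL1 had 2 edited of 3301 reads and 11 of 3528 in cytosol (0.06% and 0.31%) and 4.28% and 4.92% in sorted P-bodies, and its centred log2 odds ratio of 2.50 ± 0.47 was the largest of the 10 (adjusted p = 0.0057 by edgeR). YTHDF1 scored 5.74% and 6.03% against 0.29% and 0.82%, with a centred value of 1.31 ± 0.41 (adjusted p = 0.049 by edgeR). IGF2BP2 had 0 edited of 1885 reads in cytosol library 1, which by counting alone allows a score of up to 0.159% (a filter on sites, if one was used, could also list a 0), and 5 of 2045 in library 2 (0.24%), against 20 of 953 and 20 of 778 in sorted P-bodies. So few reads gave IGF2BP2 a centred value of 2.06 ± 0.75 that did not pass (adjusted p = 0.083 by edgeR).

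YTHDC2 gained least, and YTHDC1 about as much as YTHDF3. YTHDC1 scored 2.82% and 3.36% in sorted P-bodies against 0.61% and 0.55% in cytosol, with a centred log2 odds ratio of 0.29 ± 0.37 (adjusted p = 0.63 by edgeR). YTHDC2 scored 1.46% and 1.55% against 0.83% and 0.47%. Its log2 odds ratio of 1.23 ± 0.38 passed (adjusted p = 0.012 by edgeR) but not with limma (0.052) or DESeq2 (0.071), and not when sorted library 1, sorted library 2 or cytosol library 2 was left out (0.096, 0.12 and 0.081). After centring the YTHDC2 value was -0.92 ± 0.38 (adjusted p = 0.12 by edgeR).

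**Figure D3:**
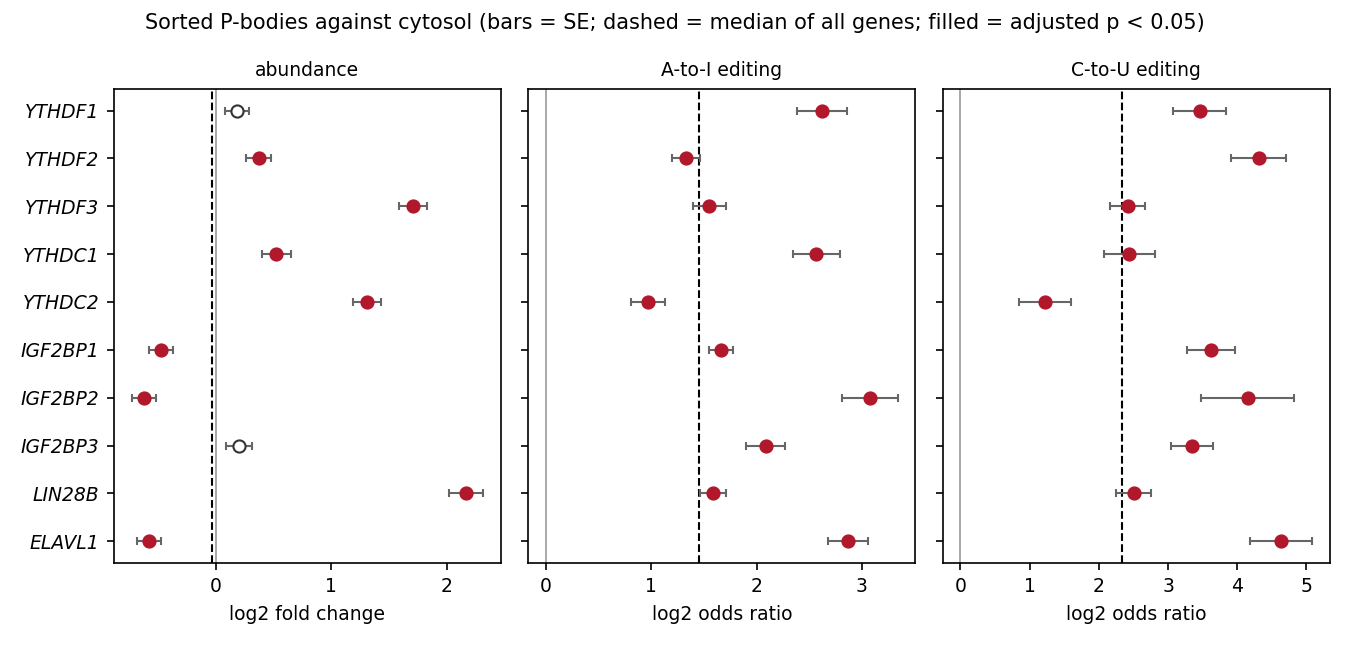
Change of each gene from cytosol to sorted P-bodies in abundance (log2 fold change) and in A-to-I and C-to-U editing (log2 odds ratio, not centred); bars are SE, dashed lines the median of all genes tested, and filled points an adjusted p under 0.05. IGF2BP2 and ELAVL1 lie left of 0 in abundance and right of the dashed line for both editors, while YTHDC2 lies left of the dashed line for both.

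Set side by side, 5 of the 10 genes illustrate how abundance and editing combined. LIN28B and YTHDF3 combined a large abundance difference with scores from both editors that were high in either fraction. IGF2BP2 and ELAVL1 combined a lower abundance in sorted P-bodies with low cytosolic scores and centred A-to-I odds ratios of 1.68 and 1.46, which those scores enter. YTHDC2 combined a higher abundance with centred odds ratios below 0 for both editors, of which the A-to-I value passed. The other 5 genes shared none of these combinations in full: IGF2BP1 was lower in abundance with a high cytosolic A-to-I score, and YTHDF1 and YTHDC1 had low cytosolic A-to-I scores without a lower abundance. Abundance and editing were read from the same 4 libraries, so no correlation between them is given.

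The last question was whether EDC4 knockdown moved these mRNAs or their marks. EDC4 itself had 245 and 186 reads with siEDC4 (40.3 and 32.7 CPM) and 684 and 609 with siNC (110 and 106 CPM), a log2 fold change of -1.56 ± 0.14 (adjusted p = 2.6e-25 by edgeR). None of the 10 genes passed in reads, in A-to-I or in C-to-U editing. Few genes did: 0.432% of the 10642 tested were higher in reads and 0.132% lower, and none passed in A-to-I (0 of 9157, with 491 at an unadjusted p under 0.05) or C-to-U editing (0 of 9646, with 377) by edgeR. By DESeq2, 1 gene passed in A-to-I and 0 in C-to-U editing, and by limma 0 in both. Fitting the 4 libraries with the batch number as a replicate block raised the counts to 303 higher and 218 lower in reads and to 25 higher and 1 lower in A-to-I editing, with none of the 10 among them.

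In reads, no difference among the 10 genes exceeded 0.18 on the log2 scale, and none passed the test. YTHDF3 had the largest, with 120 and 128 CPM after siEDC4 and 111 and 108 CPM after siNC (log2 fold change 0.18 ± 0.12, adjusted p = 0.85 by edgeR). IGF2BP2 had 101 and 104 CPM against 98.1 and 86.2 CPM (0.15 ± 0.13), and IGF2BP3 97 and 93 CPM against 104 and 106 CPM (-0.15 ± 0.13). IGF2BP1, the most read of the 10, had 430 and 442 CPM against 465 and 467 CPM (-0.09 ± 0.11). LIN28B, at the top of the sort, had 107 and 101 CPM against 102 and 98.9 CPM (0.05 ± 0.12). The other 5 genes lay between -0.07 (YTHDF2) and 0.03 (YTHDC2). The signs of YTHDF1, ELAVL1 and YTHDC2 changed when a siNC library was left out.

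A-to-I scores in the knockdown rested on 1 to 65 edited reads per library and gene. YTHDF3 had 7.27% and 8.94% with siEDC4 and 4.34% and 6.47% with siNC (log2 odds ratio 0.64 ± 0.32). LIN28B had 4.47% and 7.83% against 3.94% and 3.17% (0.79 ± 0.43), and IGF2BP1 1.64% and 1.83% against 1.17% and 1.01% (0.67 ± 0.33). The adjusted p was 0.84 by edgeR for each of these 3 genes. ELAVL1 had 6 and 5 edited reads against 3 and 3 (0.92 ± 0.67), YTHDC1 6 and 4 against 9 and 8 (-0.70 ± 0.57), and YTHDF2 15 and 20 against 26 and 24 (-0.42 ± 0.39). The median log2 odds ratio was 0.31 over the 10 and 0.31 over all genes tested, and after centring -0.04 and -0.04, so the group lay where other genes lay. Both siEDC4 libraries lay above both siNC libraries for 5 of the 10 genes (YTHDF3, LIN28B, IGF2BP1, IGF2BP3 and ELAVL1) and below them for YTHDF2 and YTHDC1, against 31.2% above and 7.85% below over all genes tested. None of the 10 passed the test.

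C-to-U scores gave no common direction beyond the shift of all genes, whose median was 0.20 (0.26 over the 10). YTHDC1 had 2.41% and 1.53% with siEDC4 and 1.38% and 1.03% with siNC (log2 odds ratio 0.70 ± 0.48), and YTHDF1 2.96% and 1.49% against 1.93% and 0.84% (0.68 ± 0.50). LIN28B had 4.86% and 6.53% against 5.65% and 6.64% (-0.12 ± 0.34), and YTHDF3 6.72% and 6.32% against 5.79% and 7.30% (0.004 ± 0.28). Both siEDC4 libraries lay above both siNC libraries for 4 of the 10 genes (YTHDC1, YTHDC2, IGF2BP1 and IGF2BP3) and below them for none, against 26.4% above and 9.99% below over all genes tested. The adjusted p was 1 by edgeR for all 10 genes.

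**Figure D4:**
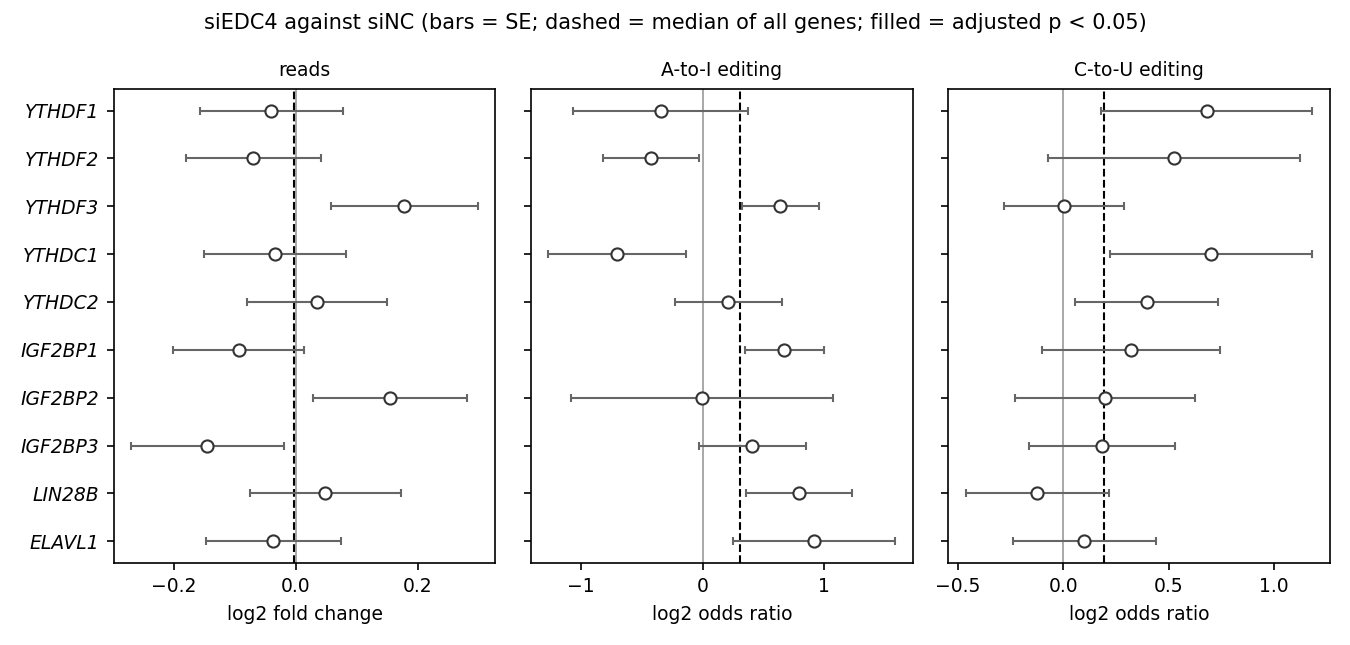
Change of each gene from siNC (2 libraries summed) to siEDC4 in reads (log2 fold change) and in A-to-I and C-to-U editing (log2 odds ratio, not centred); bars are SE and dashed lines the median of all genes tested. All points are open, which marks an adjusted p of 0.05 or more. In the A-to-I panel the bars of LIN28B and IGF2BP1 lie right of the dashed line and those of YTHDC1 and YTHDF2 left of it.

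The sort and the knockdown were deposited in separate tables, so levels across all 4 groups are given side by side without a test. LIN28B and YTHDF3 were among the more heavily marked genes everywhere: their A-to-I scores exceeded those of 90.7% to 99.6% of genes in sorted P-bodies, 86.9% to 97.9% in cytosol, 97.6% to 99.1% with siEDC4 and 93.3% to 97.9% with siNC, and their C-to-U scores those of at least 90.6% of genes in each group. In the siNC libraries YTHDF3 (5.40% ± 1.51, SD, n = 2) scored above LIN28B (3.55% ± 0.54) for A-to-I, the reverse of their order in sorted P-bodies (15.7% ± 0.32 against 23.1% ± 0.40). ELAVL1 had an A-to-I score of 0.23% ± 0.021 and a C-to-U score of 2.73% ± 0.15 with siNC, while in cytosol it had 1.54% ± 0.34 and 0.19% ± 0.18. YTHDC2 also had more C-to-U than A-to-I marks with siNC (3.03% ± 0.18 and 1.36% ± 0.13) and fewer in cytosol (0.65% ± 0.26 and 3.14% ± 0.0021). An SD of 2 libraries can lie far below the counting error. For YTHDC2 A-to-I in cytosol, the 95% counting limits were 2.45% to 3.97% in library 1 and 2.48% to 3.93% in library 2. The ELAVL1 A-to-I score with siNC rested on 3 edited reads in each library. The median gene went from 1.10% and 1.09% A-to-I and 1.75% and 1.75% C-to-U in the siNC libraries to 3.03% and 2.86% A-to-I and 0.58% and 0.54% C-to-U in cytosol.

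Sequence features of the transcripts were then set beside the abundance differences. The longest coding transcript of each gene was taken from GENCODE release 29, a rule chosen after values had been seen, and 13592 genes tested for abundance were matched. LIN28B (38.1% GC), YTHDF3 (38.8%) and YTHDC2 (40.1%) had the 3 lowest GC contents of the 10 and the 3 largest differences in favour of sorted P-bodies. YTHDC1 (40.3%) and IGF2BP3 (40.5%) were about as poor in GC, at log2 fold changes of 0.52 and 0.20. IGF2BP1 (49.6%), IGF2BP2 (48.7%) and ELAVL1 (46.1%), all lower in sorted P-bodies, were richer in GC, and YTHDF1 (51.9%) was the richest. The Spearman correlation of GC content with log2 fold change was -0.83 over the 10 genes and -0.58 over all 13592, so the group followed a relation seen across the transcriptome. With the principal transcript of each gene in place of the longest, the values were -0.64 and -0.58. Transcript length went with the log2 fold change at 0.43 over all genes by either transcript rule, but over the 10 at 0.14 with the longest and -0.26 with the principal transcript. These are descriptions across genes that share the same 4 libraries, and genes are not independent replicates.

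**Figure D5:**
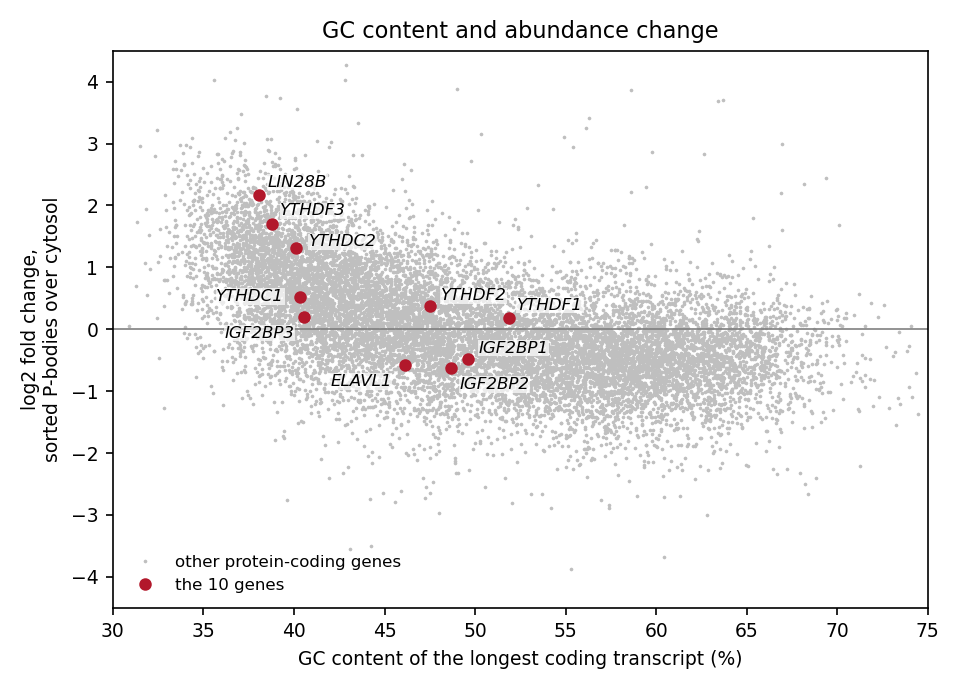
GC content of the longest coding transcript (%) against the log2 fold change in abundance, sorted P-bodies over cytosol; red points are the 10 genes and grey points the other protein-coding genes matched. LIN28B, YTHDF3 and YTHDC2 lie at the upper left, and IGF2BP1, IGF2BP2 and ELAVL1 lie below 0 at 46.1% to 49.6% GC.

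LIN28B and the IGF2BP genes are known targets of let-7, the microRNA family that LIN28B itself restrains, and matches to its seed are shown for that reason. The mature sequence (RefSeq, GRCh38.p14) has its seed, bases 2 to 8, in capitals. The 9 human let-7 and miR-98 sequences taken by name all carry this seed, and other miRNAs were not searched for it. The 3′ UTR windows of 30 bases (GENCODE release 29, hg38, transcript strand, 5′ to 3′) have the seed match CTACCTC in capitals, and for LIN28B and IGF2BP1 the match nearest the stop codon is given.
hsa-let-7a-5p: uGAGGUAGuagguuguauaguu
LIN28B chr6:105078805-105078834 (+): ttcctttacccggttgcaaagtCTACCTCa
IGF2BP1 chr17:49051054-49051083 (+): gcaatgctgtgtgcgaagtaaaCTACCTCa
IGF2BP2 chr3:185644220-185644249 (-): cgagaaaaacacacagaagaagCTACCTCa
IGF2BP3 chr7:23311795-23311824 (-): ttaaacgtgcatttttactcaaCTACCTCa
ELAVL1 chr19:7959856-7959885 (-): tcccctcccatcttccccagacCTACCTCa

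LIN28B and IGF2BP1 each held 4 such matches on the transcript strand, IGF2BP2, IGF2BP3 and ELAVL1 1 each, and the YTH genes none. Of 3′ UTRs within 20% of the same length, 23.1% held at least 1 match for the length of LIN28B and 29.3% for that of IGF2BP1. The share was 11.1% for IGF2BP2, 12.4% for IGF2BP3 and 24.3% for ELAVL1. The share of such 3′ UTRs with 4 matches was not counted. The genes with 4 matches went opposite ways in the sort, LIN28B by 2.17 and IGF2BP1 by -0.48 on the log2 scale. Over all genes, the 1472 with a match had a median log2 fold change of 0.11 and the 12120 without one -0.06, and their median 3′ UTR lengths were 3090 and 1163 bases. The 30 genes with at least 3 matches had a median log2 fold change of 0.05 and a median 3′ UTR length of 5692 bases. A match describes these letters only and is not evidence of a working site.

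Genes of the same pathways were counted in lists chosen for their roles. Of 11 genes for m6A writers and erasers, 7 were called higher and 1 lower in the sorted fraction, with a median log2 fold change of 0.50. Over all genes 28.8% were higher and 29.0% lower, which is the background for this and the other lists. VIRMA (2.20 ± 0.12) and METTL14 (1.85 ± 0.13), subunits of the methyltransferase complex, had the smallest p-values (adjusted p = 2.7e-06 and 5.5e-06 by edgeR), while METTL3, the catalytic subunit, had -0.11 ± 0.10 (adjusted p = 0.39) and ALKBH5, a demethylase, was lower (-0.45 ± 0.10, adjusted p = 0.0042 by edgeR). METTL3 and ALKBH5 were named after their values were seen. Of 10 other m6A-linked RNA-binding proteins, 4 were higher and 5 lower (median -0.09), led by FXR1 (1.52 ± 0.13), a paralog of FMR1, and PRRC2A (-1.16 ± 0.12). Of 10 partners of the YTH proteins, 5 were higher and 3 lower (median 0.24), led by XRN1 (2.21 ± 0.18), the cytoplasmic 5′ to 3′ exonuclease, and POP1 (1.38 ± 0.10), a subunit of RNase P and RNase MRP.

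Of the 11 measured genes of the LIN28 and let-7 axis, 6 were higher and 3 lower (median 0.57), led by DICER1 (2.23 ± 0.16), which cuts microRNA precursors, and TRIM71 (1.60 ± 0.11), a let-7 target. Of the 9 measured ELAVL paralogs and AU-rich element binders, 2 were higher and 4 lower (median -0.08), led by ELAVL2 (1.91 ± 0.11) and KHSRP (-1.22 ± 0.12), a decay factor. ELAVL1 (-0.58) and its paralog ELAVL2 were thus called in opposite directions. In the centred A-to-I comparison the 5 lists of 9 to 11 tested genes had 2 to 5 higher and 0 to 2 lower, against 16.9% and 12.4% of all genes. In the centred C-to-U comparison they had 1 to 7 higher and 0 to 1 lower, against 13.8% and 3.67%. The m6A-linked RNA-binding proteins had the most higher calls, 7 of 10 in C-to-U. The shares of all genes were not matched to the lists for read number, on which passing depends. No gene of any list passed in the knockdown.

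For 3 of the genes the closest profiles over the 6 comparisons were sought among the 8492 genes tested in all 6, by Euclidean distance after each comparison was centred on its median and divided by its SD. LIN28B lay nearest to POLK (0.39), COPS2 (0.41) and RASSF8 (0.45). IGF2BP1 lay nearest to DEDD (0.37), SRSF2 (0.41) and RPL5 (0.42). ELAVL1 was closest to NIPSNAP2 (0.57), UBE2L3 (0.57) and TMCO1 (0.69). These are likenesses of values only.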

How the data were processed

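RNA was sequenced from the 8 libraries described above. Per the submitters' processing notes, FastQC 0.11.9, cutadapt 1.18, STAR 2.7.9a and featureCounts 2.0.1 were used with hg38; annotation, strand setting, handling of multimapped reads and calling of edited sites were not found in them. For the sort, the authors deposited a table of raw counts, 1 row per gene. They also deposited, per editor and contrast, the edited reads, the reads (entered as estimated counts, because 3 broken lines of ANK2 per table, left out, hold values that are not whole) and the score, a fraction equal to edited reads over reads within 5.0e-08 and given here as a percentage.

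Abundance and knockdown reads were tested with edgeR 4.0.16 in R 4.3.3 (TMM, filterByExpr, quasi-likelihood test), and editing with the same test on edited and unedited reads with a term per library, over genes edited in 2 libraries or more. P-values were adjusted by Benjamini-Hochberg over all genes tested, with a threshold of 0.05. The summed siNC sample was assumed to vary like the siEDC4 libraries. The SE was derived from the estimate and its F statistic. Alternatives used DESeq2 1.42.0, limma 3.58.1 (log2 of score plus a pseudocount; A-to-I used 1.2% for the sort and 0.448% for the knockdown, C-to-U 0.234% and 0.577%), other scalings and filters, and each library left out. The tests were checked on simulated data. Limits for a count of 0 use 3 counts; they cover counting error alone, as the reads carry no molecular identifiers that the labels name.

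The members, lists and tests were chosen with earlier results of these data known. Named genes are the 10 members, EDC4, the 2 genes of each list with the smallest p in the sort's abundance test, METTL3 and ALKBH5 (added after their values were seen) and the 3 nearest profiles of 4 members, of which those of YTHDF2 are not reported here. Same-numbered libraries share a batch number in the labels, which gives the pairing; the correlation of their deviations from the group means was 0.089 for abundance, -0.005 and 0.031 for A-to-I and C-to-U editing in the sort, and -0.029, 0.072 and 0.046 for reads, A-to-I and C-to-U editing in the knockdown.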

Additional observations from a re-analysis of the deposited data

How the results depend on the processing

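Among the alternative values of the 10 genes, 583 were counted as the same, 20 lost the call, 3 gained it, 19 changed sign and 3 moved without a test. Where there was a test, the same means that direction and side of the threshold were kept. Values without a siEDC4 library had no test. For them it means a shift within the SD of the siEDC4 leave-out values, whatever the sign, so their sign changes are not among the 19. The replicate block changed no call of the 10 genes; it moved the genes lower in A-to-I editing in the sort from 122 to 71, and with 4 libraries gave 303 genes higher and 218 lower in knockdown reads, 25 and 1 in A-to-I and 3 and 1 in C-to-U editing. The 4 libraries without the block gave 111 higher and 43 lower in reads. Centring moved the A-to-I counts in the sort to 1905 higher and 1405 lower (5 and 1 of the 10 genes) and the C-to-U counts to 1465 and 389 (5 of the 10 higher), from 8311 and 122 and from 7221 and 31. It reversed YTHDF2 (-0.081) and YTHDC2 (-0.442) in A-to-I and YTHDC2 (-0.918) in C-to-U in the sort; in the knockdown it reversed YTHDC2 (-0.137) in A-to-I and YTHDF3 (-0.238), IGF2BP2 (-0.044), IGF2BP3 (-0.062) and ELAVL1 (-0.143) in C-to-U, where 1 gene was called lower. The genes lower in the sort were 338 (A-to-I) and 274 (C-to-U) with limma, 306 and 284 with the smaller pseudocount, 57 and 20 with DESeq2, and 67 and 13 with at least 20 edited reads. In the knockdown, at least 20 edited reads gave 7 genes higher in A-to-I and 1 higher and 1 lower in C-to-U editing, DESeq2 gave 2 higher and 1 lower in reads and 1 higher in A-to-I, and library-size scaling 8 lower in reads. In abundance, library-size scaling reversed YTHDF1 (-0.020) and IGF2BP3 (-0.005), and the length offset IGF2BP3 (-0.043). The cause of these shifts was not tested.

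With each library left out in turn, 3 to 7 of the 10 genes were higher in abundance in the sort, 41 to 99 genes were lower in A-to-I and 12 to 21 in C-to-U editing there. In knockdown reads, 24 to 38 genes were higher and 8 to 13 lower without a siNC library; without a siEDC4 library there was no test. With 1 knockdown library left out, sign changes included ranges of -0.129 to 0.042 (YTHDF1), -0.044 to 0.123 (YTHDC2) and -0.095 to 0.019 (ELAVL1) in reads, -1.24 to 1.632 (YTHDF1) and -0.594 to 0.451 (IGF2BP2) in A-to-I, and -0.176 to 0.182 (YTHDF3), -0.083 to 0.469 (IGF2BP2) and -0.349 to 0.101 (LIN28B) in C-to-U editing. Without siEDC4 library 1, YTHDF2 in C-to-U (0.50% in siEDC4 library 2 against 0.63% in the summed siNC) and YTHDC2 in A-to-I editing (1.32% against 1.37%) also changed sign. The knockdown editing values of the 10 genes rest on at most 65 edited reads per gene and library.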
